A study of Mus musculus with 4 samples.

Results

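The regions described here are stretches of the mouse genome at which PPARγ ChIP peaks lay within 1 kb of a gene for a small noncoding RNA in alveolar macrophages (AMs). Peaks of both ChIP libraries that overlapped by at least 1 bp were merged, merged regions with peaks of both libraries were kept, and those within 1 kb of an annotated small nuclear RNA (snRNA), small nucleolar RNA (snoRNA), small Cajal body RNA (scaRNA), transfer RNA (tRNA), microRNA (miRNA) or other small RNA gene were taken. There were 541 such regions among 20233 consensus regions (mm10). The cells were AMs from bronchoalveolar lavage of 9-week-old wild-type C57BL/6J mice, sorted by flow cytometry. For each library, 100000 to 200000 cells went into HT-ChIPmentation with 1 µg of antibody to PPARγ, a method in which a transposase cuts and tags the precipitated chromatin on the beads. Both libraries belong to this 1 group, so no genotype, treatment or time was contrasted, and their labels give replicate numbers but do not say whether each came from separate animals. Library 1 had 83787 peaks and library 2 had 28535.

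PPARγ is a nuclear receptor that binds DNA together with RXR and is required for AM identity and surfactant lipid handling. Small noncoding RNA genes are read by different polymerases. RNA polymerase III reads tRNA genes from promoter elements inside the gene, the A box and the B box, and reads U6 and 7SK genes from an upstream TATA box and sequence elements. RNA polymerase II reads the other spliceosomal snRNA genes, whose upstream enhancer element often holds an octamer sequence, and most miRNAs and many snoRNAs are cut out of longer polymerase II transcripts.

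The sequences below are those to which the results refer, read from the genome assembly GRCm38, on which mm10 is based, 5′ to 3′ along the gene. The first set gives the 250 bases before 5 snRNA-type genes with some of the strongest regions, because the octamer ATGCAAAT, searched on both strands, is set beside the regions further on. Capitals mark the octamer or its reverse complement, and the window of Rnu3b1 held neither.
Rnu3b1 (250 bases upstream, chr11:87442987-87443236, + strand): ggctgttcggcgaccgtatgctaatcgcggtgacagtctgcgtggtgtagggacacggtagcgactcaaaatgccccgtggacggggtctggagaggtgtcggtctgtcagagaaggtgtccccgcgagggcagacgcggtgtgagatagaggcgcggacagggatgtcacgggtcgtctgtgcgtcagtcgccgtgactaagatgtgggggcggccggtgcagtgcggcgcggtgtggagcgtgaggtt
Snord118 (250 bases upstream, chr11:69073176-69073425, + strand): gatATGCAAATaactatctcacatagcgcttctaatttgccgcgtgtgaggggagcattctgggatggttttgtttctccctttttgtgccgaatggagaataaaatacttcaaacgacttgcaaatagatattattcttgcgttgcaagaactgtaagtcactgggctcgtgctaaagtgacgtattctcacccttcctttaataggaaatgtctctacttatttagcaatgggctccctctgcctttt
Rnu5g (250 bases upstream, chr9:65201842-65202091, - strand): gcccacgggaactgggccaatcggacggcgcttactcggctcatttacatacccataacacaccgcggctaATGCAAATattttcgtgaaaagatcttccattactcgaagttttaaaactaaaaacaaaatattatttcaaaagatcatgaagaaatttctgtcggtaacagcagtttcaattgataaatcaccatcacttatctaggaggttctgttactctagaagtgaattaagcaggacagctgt
Rnu2-10 (250 bases upstream, chr11:101657988-101658237, + strand): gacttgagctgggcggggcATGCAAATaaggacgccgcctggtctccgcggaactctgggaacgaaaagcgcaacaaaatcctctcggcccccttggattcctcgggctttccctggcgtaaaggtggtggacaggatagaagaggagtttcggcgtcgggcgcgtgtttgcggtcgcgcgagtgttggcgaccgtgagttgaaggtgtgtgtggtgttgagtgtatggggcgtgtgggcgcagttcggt
Rnu11 (250 bases upstream, chr4:132270187-132270436, - strand): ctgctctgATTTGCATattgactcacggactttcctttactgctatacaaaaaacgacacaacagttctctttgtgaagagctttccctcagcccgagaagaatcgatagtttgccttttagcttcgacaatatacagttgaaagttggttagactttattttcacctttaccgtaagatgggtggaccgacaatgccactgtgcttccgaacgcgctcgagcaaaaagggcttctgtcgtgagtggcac
The whole Rnu3b1 gene, in lower case, is given as well because the neighbouring U3 genes Rnu3b2 and Rnu3b3 have exactly the same sequence.
Rnu3b1 (chr11:87443237-87443451, + strand): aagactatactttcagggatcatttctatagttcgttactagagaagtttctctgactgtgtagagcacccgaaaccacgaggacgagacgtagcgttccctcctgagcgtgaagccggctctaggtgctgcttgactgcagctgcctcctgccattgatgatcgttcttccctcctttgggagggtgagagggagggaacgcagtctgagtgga

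The second set gives 4 tRNA genes, whole, whose regions ranked among the strongest tRNA regions and had a summit on or near the gene. Capitals mark exact matches to the B box letters GTTCGANTC, where N is any base. The last pair held no exact match and is in lower case.
n-TLtag1 (chr7:120835479-120835560, - strand): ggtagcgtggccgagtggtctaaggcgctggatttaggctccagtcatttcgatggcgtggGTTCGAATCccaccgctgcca
n-TRcct1 (chr6:38533931-38534003, + strand): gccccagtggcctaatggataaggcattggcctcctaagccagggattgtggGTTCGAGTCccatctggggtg
n-TVaac7 (chr11:48856637-48856709, + strand): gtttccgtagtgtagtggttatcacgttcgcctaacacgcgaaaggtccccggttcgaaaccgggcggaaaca
n-TCgca55 (chr11:97988246-97988317, - strand): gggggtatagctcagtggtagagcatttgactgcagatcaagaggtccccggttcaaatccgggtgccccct

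The third set gives mature miRNAs, from RefSeq (GRCm38.p6), of the listed myeloid miRNA genes that had a region. Capitals mark the seed, bases 2 to 8, which pairs with target transcripts. These 8 arms have different seeds.
miR-21a-5p: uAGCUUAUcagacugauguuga
miR-142a-5p: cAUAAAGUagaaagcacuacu
miR-142a-3p: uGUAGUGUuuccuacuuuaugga
miR-23a-3p: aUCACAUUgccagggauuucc
miR-27a-3p: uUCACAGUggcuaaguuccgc
miR-24-3p: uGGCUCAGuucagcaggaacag
miR-146b-5p: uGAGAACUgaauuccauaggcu
miR-342-3p: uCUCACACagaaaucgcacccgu

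The 541 regions lay beside 542 of 6692 annotated small RNA genes (8.1%). The same count was 5213 of 22529 (23.1%) for protein-coding genes, with the region within 1 kb of a transcription start site (TSS), and 1584 of 18366 (8.62%) for long noncoding RNA (lncRNA) genes. As a scale, 1.81% of the chromosome sequence lies within 1 kb of a consensus region. A single class of gene was near 526 of the regions and more than one class near 15, and 153 of the genes had 2 or more regions. A region overlapped a small RNA gene in 261 cases. Of the 541 regions, 304 were also within 1 kb of the TSS of a protein-coding or lncRNA gene, so that the small RNA gene was not the only gene there.

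The tRNA genes stood apart from all other classes by more than the counting intervals. A region was found at 180 of 403 tRNA genes (44.7%, 95% Wilson interval 39.9 to 49.5%), and at a much smaller share of every other class. The share was 5.53% for snRNA genes (79 of 1428, interval 4.46 to 6.84%) and 6.45% for miRNA genes (144 of 2231, interval 5.51 to 7.55%). It was 5.22% for snoRNA genes (86 of 1648, interval 4.25 to 6.4%) and 5.24% for other small RNA genes (49 of 935, interval 3.99 to 6.86%). The intervals of these 4 classes overlap. Only 4 of 47 scaRNA genes had one (8.51%). The intervals cover counting error only, and neighbouring genes that share a region are not independent. Most annotated snRNA and snoRNA loci have only a predicted-gene symbol, and the genes with a symbol of their own stood apart from them. A region was present at 12 of 18 named snRNA genes (66.7%), against 67 of 1410 that have only a predicted-gene symbol (4.75%), and at 36 of 143 named snoRNA genes (25.2%), against 50 of 1505 predicted ones (3.32%).

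**Figure D1:**
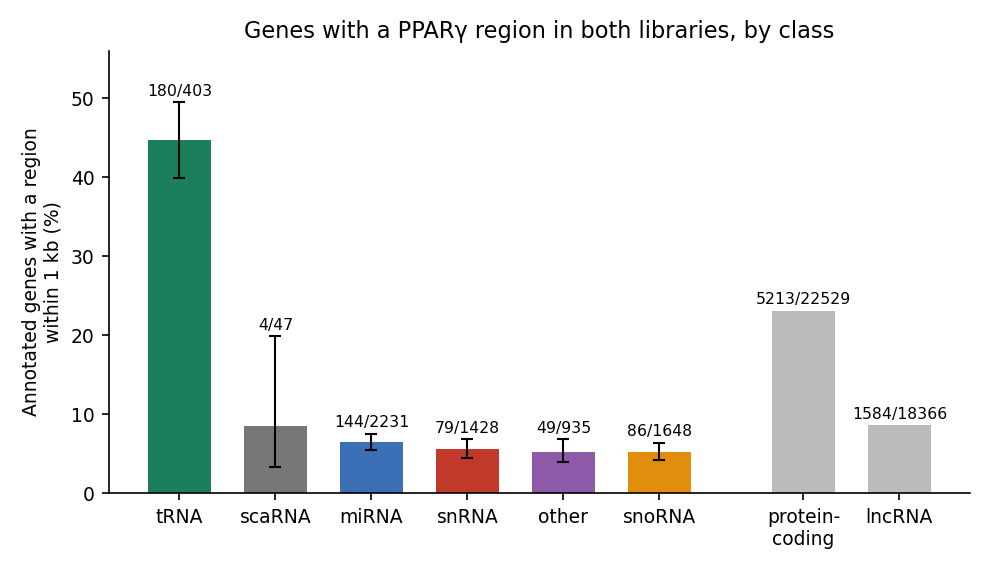
Share of annotated genes with a PPARγ region within 1 kb, in percent, by class, with the number of genes with a region over all genes of the class above each bar. Error bars are 95% Wilson intervals; grey bars count protein-coding and lncRNA genes by their TSS. The tRNA bar, at 44.7%, is above that of protein-coding genes at 23.1%, and every other small RNA class is below 10%.

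The strength of a region is given by the authors' fold enrichment, for the best peak of each library. It is the linear ratio of ChIP signal at the peak summit to the background that peak calling set from that library's own input. How far this background follows the input at the summit itself cannot be read from the peak lists. At small RNA genes the median fold enrichment was 8.29 in library 1 and 5.91 in library 2, against 6.81 and 5.35 for the 19692 consensus regions elsewhere. A region was counted in the top 10% when its fold enrichment ranked among the highest 10% in both libraries, and 93 of the 541 were (17.2%, interval 14.2 to 20.6%). Over all consensus regions, 1179 were (5.83%). Ranked by the lower of the percentiles in the 2 libraries, the first 100 of all regions held 29 at small RNA genes, and 20 of these were at snRNA genes.

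By class, tRNA regions had the highest median in both libraries, 10.7 in library 1 and 6.75 in library 2. The medians were 8.89 and 6.47 at snRNA genes, 8.29 and 5.63 at snoRNA genes, 7.41 and 5.63 at miRNA genes, and 7.36 and 5.28 at other small RNA genes. The top 10% held 27% of the snRNA regions (27 of 100, interval 19.3 to 36.4%) and 24.1% of the tRNA regions (33 of 137, interval 17.7 to 31.9%). It held 11.7% of the snoRNA regions, 11.1% of the miRNA regions and 10% of the other regions. The snRNA class was spread widely, with quartiles of 6.23 and 18.1 in library 1 and 4.76 and 9.33 in library 2.

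**Figure D2:**
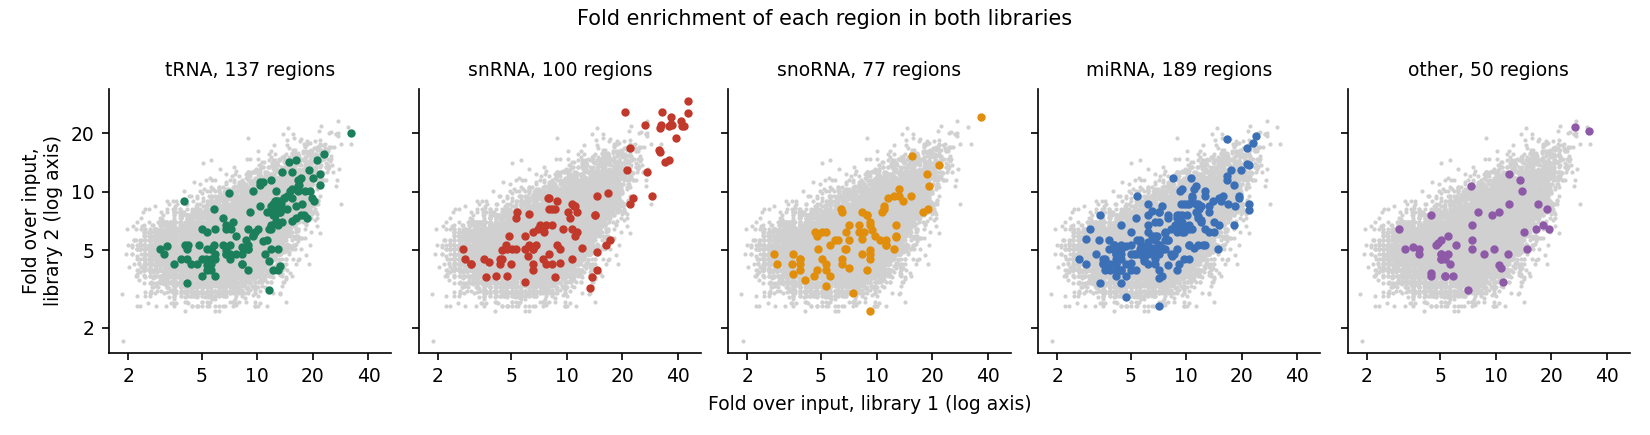
Fold enrichment over input of each region in library 1 (horizontal, log axis) and library 2 (vertical, log axis). Coloured points are regions of the class named above each panel, grey points are the 19692 consensus regions not at small RNA genes. A group of snRNA regions lies at the upper right corner, up to 45.3 in library 1 and 29.4 in library 2, and most tRNA regions lie in the upper part of the grey cloud.

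Protein-coding promoters accompany the classes unequally. Of all consensus regions, 6316 were within 1 kb of a protein-coding TSS (31.2%). The share was 70.4% for miRNA regions (133 of 189, interval 63.5 to 76.4%) and 53.2% for snoRNA regions (41 of 77, interval 42.2 to 64%). It was 24% for snRNA regions (24 of 100), 24.1% for tRNA regions (33 of 137) and 28% for other regions (14 of 50), and the intervals of these 3 classes include the share over all regions. For the miRNA and snoRNA classes, a region at the small RNA and a region at the promoter of a neighbouring or host gene cannot be told apart in most cases.

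The regions at the edge of the distance rule varied in strength. Just inside 1 kb were regions at n-TEttc4 (995 bp away, 5.63 in library 1 and 5.07 in library 2) and n-TRtct2 (993 bp, 13.6 and 12.6). Just outside were regions near Snord110 (1009 bp, 7.7 and 3.68) and Gm22101 (1013 bp, 6.72 and 7.87).

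The strongest of all consensus regions were at snRNA-type genes read by polymerase II. This group was taken as U1, U2, U4, U5, U7, U11, U12, U3, U8, U13 and telomerase RNA, and 39 of its 287 annotated genes had a region (13.6%, interval 10.1 to 18%). Their 51 regions had a median fold enrichment of 16.3 in library 1 and 8.7 in library 2, and 24 of them were in the top 10% (47.1%). The U3 RNA, a box C/D snoRNA that guides cleavage of the ribosomal RNA precursor, is annotated as snRNA in RefSeq and is counted there.

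The region that ranked first of all 20233 covered part of Rnu3b1, a U3 gene, at chr11:87443312-87444320, and had a fold enrichment of 45.0 in library 1 and 29.4 in library 2. Rank 2 was the region over Rnu1a1, a gene of U1, which recognises the 5′ splice site, at chr11:87421677-87424633, with 45.3 and 25.5. Ranks 3 and 5 were the regions at Rnu3b3, with 41.5 and 23.2, and Rnu3b4, with 36.4 and 22.4. These genes stand in a cluster inside the gene Tex14 at chr11:87422867-87471582, where all 7 annotated snRNA genes had a region and 12 regions were counted.

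Other families followed closely. Snord118, the gene of U8, a snoRNA needed for large-subunit ribosomal RNA processing, ranked 4 at chr11:69072970-69074595, with 36.7 in library 1 and 24.3 in library 2. Rnu5g, a gene of U5, which holds the exons together during splicing, ranked 6 at chr9:65200446-65202761, with 37.0 and 22.1. Rnu2-10, a gene of U2, which recognises the branch point, ranked 7 at chr11:101657355-101659576, with 32.9 and 25.7. Rnu11, the U11 gene of the minor spliceosome, ranked 9 at chr4:132268875-132270812, with 43.2 and 21.8. All of the first 12 regions in the ranking were at these families, the remaining ones being the U5 genes Gm25099 (42.1 and 21.8) and LOC115487699 (32.4 and 22.1) and the U3 genes Rnu3a (35.5 and 21.8) and Rnu3b2 (32.0 and 21.3).

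Further down, the region over the U4 genes Gm24265 and Gm24407 ranked 21 with 39.1 in library 1 and 19 in library 2, and that at Rnu12, the U12 gene of the minor spliceosome, ranked 38 with 31.4 and 16.4. Rnu7, the gene of the U7 RNA that processes histone transcripts, ranked 2038 with 14.2 and 7.59. Terc, the telomerase RNA gene, ranked 11754 with 5.04 and 5.63. Members of the group therefore ranged over nearly the full range of the data. No region lay within 1 kb of the named U1 genes Rnu1b1, Rnu1b2 and Rnu1b6.

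**Figure D3:**
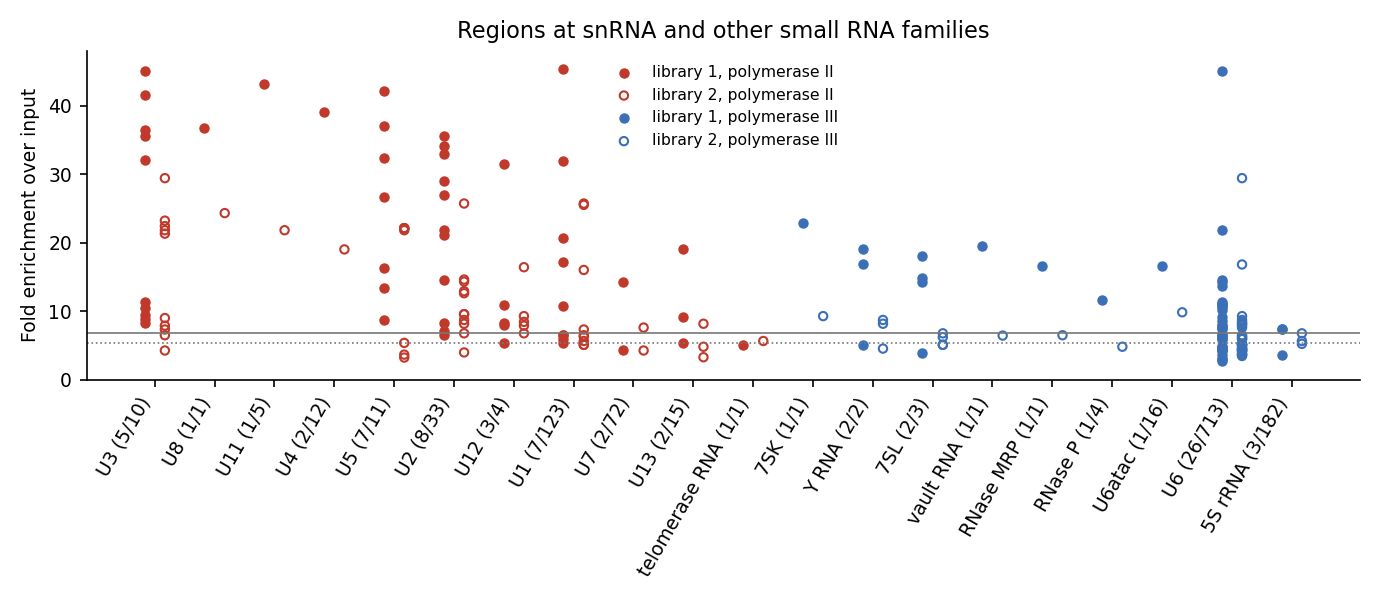
Fold enrichment over input of each region at small RNA families, filled points for library 1 and open points for library 2, red for families read by polymerase II and blue for polymerase III, with genes with a region over all annotated genes in brackets. The solid and dotted lines are the medians of all consensus regions, 6.81 in library 1 and 5.35 in library 2. The highest U6 point, at 45.0 and 29.4, is the Rnu3b1 region, which lies 154 bp from the U6 copy Gm23137.

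The families also differed in how many of their annotated loci had a region. For U5 it was 7 of 11 loci, for U3 5 of 10, for U12 3 of 4 and for U2 8 of 33, against 7 of 123 for U1, 2 of 12 for U4, 1 of 5 for U11, 2 of 15 for U13 and 2 of 72 for U7. Most loci of these families are diverged copies, so each locus of 8 families was aligned to the nearest curated copy, the curated copies included. The 8 were U1, U2, U3, U5, U7, U11, U12 and the polymerase III family U6, while U4 and U13 were not aligned. Among loci at least 95% identical to a curated copy, 38 of 241 had a region (15.8%, interval 11.7 to 20.9%). Among those of 80 to 95% identity, 10 of 387 had one (2.58%), and below 80%, 11 of 343 (3.21%). These pooled shares mostly describe U6, which held 187 of the 241, 312 of the 387 and 214 of the 343 loci. Of these U6 loci, 12, 6 and 8 had a region. In the U1 family a region was at 5 of 25, 0 of 31 and 2 of 67 loci in the same order. In the U2 family a region was at 8 of 13 loci of at least 95% identity and at 0 of the other 20, and in the U3 family at 5 of 7 and at 0 of the other 3. Alignments of quality 30 or less had been removed before peak calling, so reads that map equally well to identical copies can be lost or misplaced. An identical copy, meaning another annotated gene of the class with the same sequence, was present for 20.3% of snRNA genes with a region (16 of 79) and 6.15% of those without (83 of 1349). It was present for 3 of 5 U3, 4 of 8 U2 and 4 of 7 U1 genes with a region, but for 0 of 7 U5 genes. To which of the identical copies a value belongs is uncertain.

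The peaks at the strongest snRNA genes stood downstream of the gene's 5′ end rather than on it. In library 1 the summit was 376 bp downstream of the 5′ end of Rnu3b1, 214 bp for Rnu2-10, 178 bp for Rnu5g, 120 bp for Rnu11 and 99 bp for Snord118. In library 2 the distances were 265, 280, 350, 134 and 60 bp. Rnu1a1 differed, with summits at -30 bp in library 1 and 160 bp in library 2. Over the 51 polymerase II regions the summit lay at a median of 178 bp in library 1, and of 160 bp in library 2. Peaks of both libraries covered the full length of Rnu1a1, Rnu5g, Rnu2-10, Rnu11, Rnu12 and Rnu3a.

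The U3 genes in Tex14 had a different shape. Each of Rnu3b1, Rnu3b2, Rnu3b3 and Rnu3b4 had a weaker region upstream and a strong one that began within the gene. The upstream regions had fold enrichments of 10.4 in library 1 and 7.31 in library 2 for Rnu3b1, and of 9.48 and 6.47 for Rnu3b2. They had 11.3 and 7.87 for Rnu3b3 and 8.89 and 8.98 for Rnu3b4. Peaks covered 65.1% of the Rnu3b1 gene in library 1 and 59.5% in library 2, and 39.9% and 31.2% of Rnu3b4, so the part of the gene next to its 5′ end was without a peak. Rnu3b1, Rnu3b2 and Rnu3b3 have the same sequence over all 215 bases, and Rnu3b4, annotated as 218 bases, aligns to it with 100% identity. The upstream window printed above for Rnu3b1 is also the same, base for base, in Rnu3b2, Rnu3b3 and Rnu3b4. The weaker regions ended 229 bp before Rnu3b1, 255 bp before Rnu3b2, 198 bp before Rnu3b3 and 270 bp before Rnu3b4. The stretch between the weaker and the strong region therefore lay wholly or mostly in sequence that these genes share. The part of reads removed for low alignment quality in this stretch was not tested.

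The octamer was more frequent upstream of snRNA-type genes with a region. Within the 250 bases before the gene, 19 of 39 polymerase II genes with a region held ATGCAAAT on either strand (48.7%, interval 33.9 to 63.8%), against 15 of 248 without a region (6.05%, interval 3.7 to 9.74%). Of 32851 promoters in RefSeq, 526 held it in the same window (1.6%). All 8 U2 genes with a region held it, against 3 of 25 without one, and 4 of 7 U5 genes with a region, against 0 of 4 without one. None of the 5 U3 genes with a region did, but Rnu3b1, Rnu3b2, Rnu3b3 and Rnu3b4 among them share the same 250 bases upstream. Genes of repeated arrays are counted separately here, so the counts are not of independent sequences. Its position also differed: the median was -227 bp from the gene's 5′ end (range -247 to -179) in the 19 genes with a region and -73 bp (range -230 to -45) in the 15 without. The search stopped 250 bases before the gene, close to the furthest of these positions, so an octamer beyond that was missed. Counts and positions therefore hold for this window only. In the sequences printed above the octamer starts at -247 in Snord118, -179 in Rnu5g, -231 in Rnu2-10 and, on the reverse strand, -242 in Rnu11. Around the summits fewer regions held it: within 100 bp it was in 1 of 51 polymerase II regions in library 1 (1.96%, interval 0.347 to 10.3%), against 1.1% of all regions, and in 3 of 51 in library 2 (5.88%, interval 2.02 to 15.9%), against 1.21% of all. Of the 100 snRNA regions, 1 held it in library 1 and 6 in library 2 (6%, interval 2.78 to 12.5%). The part of copy identity in the difference upstream was not tested. A match is a description of the letters and not a binding site.

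**Figure D4:**
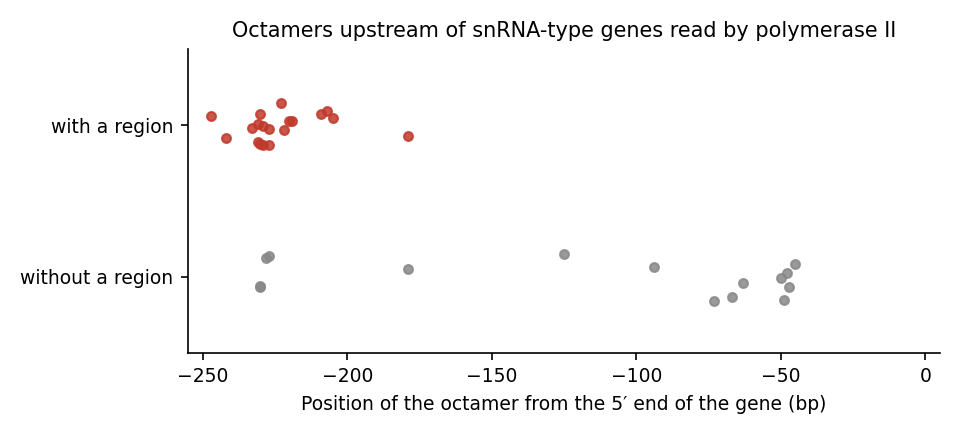
Position of the octamer nearest the far end of the 250-base window, in bp from the 5′ end of the gene, for the 19 polymerase II snRNA-type genes with a region that held it (red, upper row) and the 15 genes without a region that held it (grey, lower row). Points are spread vertically only to be seen apart. The upper row lies between -247 and -179, and most of the lower row lies between -125 and -45. Octamers beyond the 250-base window were not searched for.

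Small RNA genes of polymerase III other than tRNA and U6 formed a smaller group with its own pattern. It held 210 annotated loci, mostly 5S ribosomal RNA copies, and 12 of them had a region (5.71%, interval 3.3 to 9.72%). Rn7sk, the 7SK RNA that holds the elongation factor P-TEFb inactive and is filed as snRNA in RefSeq, had 22.8 in library 1 and 9.26 in library 2. Rny3 and Rny1, the Y RNAs bound by the Ro60 protein, had 19 and 8.15, and 16.9 and 8.7. Vaultrc5, a vault RNA, had 19.5 and 6.42.

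Rmrp, the RNA of RNase MRP, which acts in ribosomal RNA processing, had 16.6 in library 1 and 6.47 in library 2, and Rpph1, the RNA of RNase P, which trims tRNA precursors, had 11.6 and 4.79. The 7SL genes, whose RNA is the scaffold of the signal recognition particle, had 14.8 and 5.07 at Rn7s1 and 18.1 and 6.75 at the strongest of the 3 regions at Rn7s2. Gm25541, a U6atac locus, had 16.6 and 9.82. In this group the 2 libraries stood further apart than at tRNA or polymerase II genes: the ratio of the fold enrichment in library 1 to that in library 2 had a median of 2.3 over the 15 regions, against 1.24 over all consensus regions, and exceeded the upper quartile of all regions (1.55) in 10 of 15. The ratio was 1.63 for the polymerase II families and 1.47 for tRNA regions. Only 3 of 182 annotated 5S loci had a region, with 7.44 or less in library 1 and 6.75 or less in library 2.

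Library 1 summits of this group were mostly close to the 5′ end of the gene. In that library, 9 of 15 were within 100 bp of the 5′ end (60%), and in library 2, 4 of 15 (26.7%). The library 1 summit was at -71 bp for Rn7sk, -58 bp for Rny3, -57 bp for Rpph1, -29 bp for Rny1 and -3 bp for Gm25541. Peaks of library 1 covered all of Rn7sk and Rpph1, while those of library 2 covered 17.2% and 25.5% of them.

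U6 loci were seldom among the regions, although U6 is the spliceosomal RNA at the catalytic centre and its loci are the most numerous of the families. A region was near 26 of 713 (3.65%, interval 2.5 to 5.29%), with medians of 7.48 in library 1 and 5.07 in library 2. Of 187 loci at least 95% identical to a curated copy, 12 had a region (6.42%). In library 1, 4 of 32 summits lay within 100 bp of the 5′ end, in library 2 3 of 32. Regions with a summit close to the start of a U6 locus were those at Gm23296 (10.6 in library 1 and 8.7 in library 2, summits at -26 and 55 bp) and Gm24019 (14.5 and 3.97, summits at -51 and -154 bp). Gm25064, whose sequence is identical to Rnu6, had 13.6 and 3.65. The gene Rnu6 itself had no region within 1 kb. The octamer stood upstream of 5 of 26 U6 loci with a region (19.2%) and of 15 of 687 without (2.18%).

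At tRNA genes the summits gathered at the gene. Of 137 tRNA regions, 104 overlapped a tRNA gene. The summit was within 100 bp of the 5′ end of the nearest tRNA gene in 68 (49.6%, interval 41.4 to 57.9%) in library 1 and in 61 (44.5%, interval 36.5 to 52.9%) in library 2. The medians were -31 bp and -13 bp. The same share was 13% and 11% at snRNA genes, 7.79% in both libraries at snoRNA genes, and 7.94% and 7.41% at miRNA genes.

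**Figure D5:**
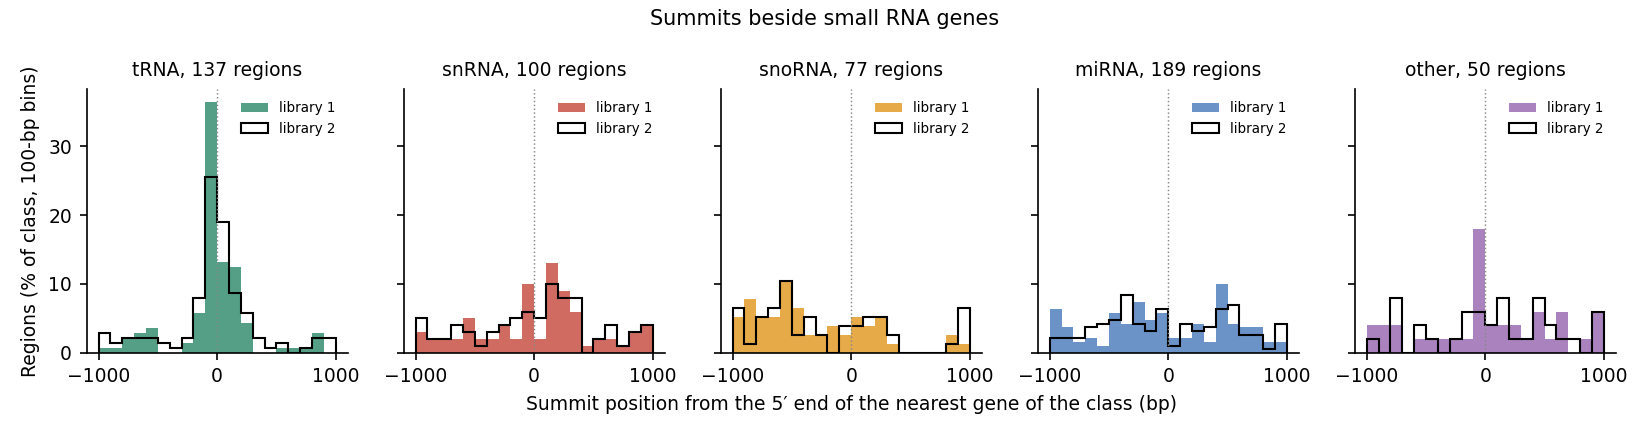
Position of the summit in bp from the 5′ end of the nearest gene of the class, as percent of the regions of the class in bins of 100 bp, filled for library 1 and outlined for library 2. Summits beyond 1 kb are not drawn. tRNA regions form a single peak around the gene start, snRNA regions lean to the downstream side and snoRNA regions to the upstream side, while miRNA regions are spread over the window.

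The strongest tRNA regions were not all of this kind. The first in rank, 15 among all regions, was a region 14448 bp wide that holds the isoleucine tRNA gene n-TIaat16 and had 32.0 in library 1 and 20.1 in library 2, but its library 1 summit was 9963 bp from the gene. The region at the lysine tRNA gene n-TKctt21 ranked 50 with 23.1 and 15.7, and the one at the methionine tRNA gene n-TMcat9 ranked 79 with 21 and 14.6, with summits 248 and 515 bp before the gene in library 1. The first with both summits on the gene was at the leucine tRNA gene n-TLtag1, which ranked 151 at chr7:120834577-120836426 with 19 and 12.9 and had summits at 17 and 1 bp.

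Neighbouring genes share the next region, at chr11:48855544-48857540, which had 21.9 in library 1 and 12.3 in library 2. They are the 3 tRNA genes n-TLaag6 for leucine, n-TPtgg4 for proline and n-TVaac7 for valine. The arginine tRNA gene n-TRcct1 had 20.1 and 11.8 with summits at -75 and -80 bp, and the region shared by the cysteine tRNA genes n-TCgca54 and n-TCgca55 had 17.2 and 11.8. All of these were in the top 10% of both libraries.

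Isotypes, the groups of tRNA genes for 1 amino acid, differed widely. A region was found at 8 of 10 tyrosine, 12 of 16 proline, 5 of 7 phenylalanine, 17 of 24 arginine and 17 of 25 leucine tRNA genes. At the low end were 10 of 33 alanine and 3 of 57 cysteine tRNA genes (5.26%, interval 1.81 to 14.4%). The cysteine genes are mostly in tandem on chromosome 6, where 0 of 49 had a region, and 59.2% of those 49 have an identical copy among tRNA genes. Without the cysteine genes the share over tRNA genes was 177 of 346 (51.2%), and 58.7% of those 346 have an identical copy. Over all tRNA genes, those with an identical copy had a region more often, at 124 of 238 (52.1%), against 56 of 165 without such a copy (33.9%).

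Some clusters of tRNA genes had a region at every gene and others at none, while many were mixed. On chromosome 11, all 7 genes at chr11:69037003-69041897 had a region, and on chromosome 19 all 8 at chr19:12002236-12012338. In the large histone locus on chromosome 13, 14 of 22 genes at chr13:23397060-23467165 had one, and on chromosome 1, 12 of 25 at chr1:171033942-171111515. By contrast, none was found at the 39 genes of chr6:48186318-48363603, nor at the 7 genes of chrX:136357602-136401939. Genes standing alone had a region at 41.6% (42 of 101, interval 32.5 to 51.3%), those in clusters of 2 or 3, with gaps of at most 20 kb, at 62.2% (28 of 45, interval 47.6 to 74.9%), and those in clusters of 4 or more at 42.8% (110 of 257, interval 36.9 to 48.9%). For snRNA genes the same shares were 3.95% (52 of 1318), 14.3% (12 of 84) and 57.7% (15 of 26, interval 38.9 to 74.5%). Those 26 genes stand in only 5 clusters, in which 7 of 7, 4 of 4, 3 of 4, 1 of 7 and 0 of 4 genes had a region.

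The B box letters were found in 91 of 180 tRNA genes with a region (50.6%, interval 43.3 to 57.8%) and in 74 of 223 without (33.2%, interval 27.3 to 39.6%). Most isotypes either carry these exact letters or do not: all 24 arginine and all 10 tyrosine genes did, and 0 of 26 lysine, 0 of 22 valine and 0 of 16 proline genes did, and the part of isotype in the difference was not tested. Around the library 1 summit, within 100 bp, 28 of 137 tRNA regions held the letters (20.4%), against 51 of 20233 of all regions (0.252%). Around the library 2 summit it was 19.7% of tRNA regions. The tRNA regions were selected by their distance from tRNA genes, many of which hold the letters. A higher share than over all regions therefore follows from the selection.

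The miRNA regions were weaker and mostly at promoters of other genes. Of 189, 63 overlapped a miRNA gene. First in rank was a region 864 bp from Mir7681 that ranked 28 with 24.0 in library 1 and 19.3 in library 2. Mir21a, whose miRNA is among the most abundant of macrophages and dampens inflammatory signalling, lies inside a region 11948 bp wide at chr11:86575922-86587869, at the end of the gene Vmp1. It ranked 33 with 23.1 and 17.9. Mir142, a gene of blood cells, lies in a region at chr11:87754394-87761510 that also covers the start of its host transcript and ranked 212 with 17.5 and 12.9. Of the 6 leading miRNA regions only that at the predicted locus Gm23935, which ranked 100 with 21.3 and 14, had both summits within 100 bp of the gene start, at -5 and -18 bp. The others were at Gm23633 (21.3 and 16.8), Gm44350 (21.9 and 13.7) and Gm22133 (19.8 and 12.9), which lies in the ferritin light chain gene Ftl1.

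In a list of 40 miRNA genes known from myeloid cells, 7 had a region within 1 kb (17.5%) and 19 within 10 kb (47.5%). Over all miRNA genes on the chromosomes with regions the shares were 6.47% (144 of 2225) and 17.8%. In a list of 20 miRNA genes of other cell types, 2 had a region within 1 kb (10%) and no others within 10 kb. Besides Mir21a and Mir142, the 7 are Mir23a, Mir27a and Mir24-2, which form a cluster, Mir146b, which restrains signalling from Toll-like receptors, and Mir342. The cluster was beside a region with 21.9 in library 1 and 8.03 in library 2 and a weaker one with 8.4 and 4.69. Mir146b had regions with 7.41 and 8.42 and with 5.39 and 9.54, higher in library 2, and Mir342 was 940 bp from a region with 4.44 and 5.07. The pair with a region in the other list, Mir141 and Mir200c, known from epithelia, share one with 4.74 and 5.25.

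Several well-known myeloid miRNA genes were beyond 1 kb. The nearest region was 2607 bp from Mir223, the miRNA of granulocytes and macrophages, with 8.59 in library 1 and 3.26 in library 2, and it lay at the TSS of the host transcript. It was 1085 bp from Mir511, inside the mannose receptor gene Mrc1, with 7.41 and 5.91, and 1105 bp from Mir22, with 17.8 and 10.1. For Mir155, induced by inflammatory stimuli, the nearest was 285923 bp away. Of 28 listed myeloid miRNA genes with a host transcript, 12 had a region within 1 kb of the host's TSS, and so had 2 of 18 in the list of miRNA genes of other cell types. Genes that share a host, such as Mir106b, Mir93 and Mir25 in Mcm7, are counted separately, and over all genes the share was 23.1% for protein-coding and 8.62% for lncRNA genes.

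Histone genes accounted for part of the class. The nearest protein-coding gene was a histone gene for 33 of 189 miRNA regions (17.5%), with medians of 11.6 in library 1 and 6.75 in library 2, and 32 of the 33 were within 1 kb of a TSS. The miRNA loci there are predicted ones such as Gm44350, beside H2ac6, whose region had 21.9 and 13.7. A histone gene was nearest for 8 of 137 tRNA regions (5.84%), 1 of 50 other regions, 0 of 100 snRNA regions and 0 of 77 snoRNA regions. The share over all consensus regions was not counted, so whether 17.5% is high cannot be said. The octamer, which histone H2B promoters are known to carry, was within 100 bp of the library 1 summit in 9 miRNA regions (4.76%), of which 6 were next to histone genes, against 1.1% of all regions. Around the library 2 summit it was in 4 miRNA regions (2.12%, interval 0.826 to 5.31%), against 1.21% of all, so the difference from all regions was not detectable there.

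Of the 144 miRNA genes with a region, 76 could be matched to mature sequences in RefSeq, giving 118 arms with 117 different seeds. The only shared seed was AGCAGCA, of miR-15b-5p and miR-16-5p, from Mir15b and Mir16-2.
miR-15b-5p: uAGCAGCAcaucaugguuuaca
miR-16-5p: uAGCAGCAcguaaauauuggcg

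The snoRNA regions were mostly at the promoters of host genes, from whose introns most vertebrate snoRNAs are released. A region was near 67 of 705 snoRNA genes inside a host transcript (9.5%, interval 7.55 to 11.9%) and 19 of 943 others (2.01%, interval 1.29 to 3.13%). Of the 58 regions at hosted genes, 44 were within 1 kb of the host's TSS. Library 1 summits had a median position of -496 bp from the snoRNA gene, and library 2 summits of -533 bp.

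Apart from Snord118 and Gm25861, the leading snoRNA regions were in genes of translation and protein folding. A region within Eif4a1, which encodes a helicase of translation initiation, was 769 bp from LOC115487878 and had 21.9 in library 1 and 13.7 in library 2. One at the TSS of Hspa8, a constitutive chaperone, next to Snord14c and Snord14d, had 18.7 and 12.3. The region at Rpl3, a ribosomal protein gene, next to Snord43, had 19.3 and 10.7. A region over the predicted snoRNA Gm25861, in no host transcript, had 15.5 and 15.4. Snord13, the gene of U13, which has its own promoter, had 19 and 8.15.

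In a list of 18 snoRNA host genes, 12 had a region at the TSS, against 23.1% of all protein-coding genes and 8.62% of all lncRNA genes. Eif4a2 had 15.4 in library 1 and 9.54 in library 2, and all 5 of its snoRNA genes were within 1 kb of a region. Gas5, a noncoding host whose RNA accumulates in growth-arrested cells, had 11.3 and 5.63, with 5 of its 9 snoRNA genes near a region. None was found at the TSS of Snhg1, Snhg7, Snhg14, Snhg15, Snhg16 or Npm1. Snhg14, the imprinted host on chromosome 7 that is active in neurons, accounts for 205 snoRNA genes, none with a region.

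The 3 scaRNA regions, near genes that guide modification of snRNAs, were weak to moderate. Scarna13 had 11 in library 1 and 6.74 in library 2, Scarna2 had 8.4 and 7.03, and Scarna17 shared a region of 4.44 and 4.79 with Gm23119. None of the 3 regions overlapped a scaRNA gene.

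Among other small RNA genes, the leading regions were wide ones over the nuclear lncRNAs Neat1 and Malat1. The Neat1 region, 25529 bp wide, held annotated fragments such as Gm27505 and had 32.0 in library 1 and 20.7 in library 2. The Malat1 region had 27 and 21.5 and held Mascrna, the tRNA-like RNA cut from the Malat1 3′ end, with the library 1 summit at -6577 bp from that gene. In both cases the lncRNA locus and the small RNA within it cannot be told apart. Next were regions at Gm25447, inside the cholesterol exporter gene Abcg1 (13.9 and 10.1), at Gm23152, inside Prex1 (13.6 and 11.5), and at Gm27761, inside Zeb2os (11.8 and 12.3). All but the Y RNA region among the 6 leading ones therefore lay in a longer gene.

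The letters of known motifs were searched for on both strands within 100 bp of the library 1 summit, and shares are given for the 541 regions and for all 20233. The DR1 motif, the letters AGGTCA in a row 2 times with any 1 base between, which PPARγ with RXR is known to bind, was in 0 of 541 regions (interval up to 0.705%) and in 13 of 20233 of all regions (0.0643%). Around the library 2 summit they were in 1 of 541 (0.185%) and in 17 of 20233 (0.084%). The exact letters are rare, so a lower share than over all regions was not detectable. Its half-site AGGTCA was in 10.4% of the regions and 14.9% of all. The letters GAGGAAGT of PU.1, the myeloid lineage factor, were in 3.14% and 6.83%, and in 1.46% of tRNA regions. GGGGCGGGG, bound by SP factors at promoters, was in 4.44% and 2.21%, and in 10.4% of snoRNA regions. TATAAA was in 18.7% and 14.5%, and in 24% of snRNA regions. Of the remaining letters, TTGCNNAA (CEBP factors) was in 12.8% and 15.1%, TGANTCA (AP-1) in 9.06% and 9.98%, TGTGGTT (RUNX factors) in 5.36% and 8.02%, and CCGGAAGT (ETS factors) in 2.4% and 1.33%. Among the 301 regions not within 1 kb of a protein-coding TSS, SP letters were in 1.66% (interval 0.712 to 3.83%) and ETS letters in 1.33%. Half-site, PU.1 and TATAAA letters were in 11.6%, 4.98% and 19.9% of these 301. The shares over all consensus regions placed likewise were not counted. The AP-1 letters were in 16.9% of snoRNA regions (interval 10.1 to 26.8%) and 4.38% of tRNA regions (interval 2.02 to 9.23%) around the library 1 summit. Around the library 2 summit the shares were 5.19% (interval 2.04 to 12.6%) and 2.92%, against 9.53% of all regions. Within 50 bp of the library 1 summit they were 3.9% and 2.19%. Within 200 bp of it they were 19.5% (interval 12.2 to 29.7%) and 8.03% (interval 4.54 to 13.8%). The intervals of these classes were therefore apart only within 100 bp of the library 1 summit. PU.1 letters were in 5% of snRNA regions around the library 1 summit and in 8% around that of library 2, against 5.96% of all regions there. ACTACAATT, bound by ZNF143 at snRNA promoters, was in 0.185% and 0.227%. Around the library 2 summit, the half-site was in 10.5% of the 541 regions, against 15.1% of all. PU.1 letters were in 4.44% (interval 3 to 6.52%), against 5.96%, and SP in 2.96% (interval 1.83 to 4.75%), against 2.09%. TATAAA was in 16.5% (interval 13.6 to 19.8%), against 13.8%, and RUNX in 5.36% (interval 3.76 to 7.59%), against 7.29%. For PU.1, SP, TATAAA and RUNX a difference was not detectable there. TATAAA was in 18% of snRNA regions (interval 11.7 to 26.7%).

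Around the library 2 summit, 1 region held the exact DR1 letters, at the predicted miRNA locus Gm26268, with a fold enrichment of 5.68 in library 1 and 5.35 in library 2. The 41 bases around it are printed because it is the only such match, with the motif in capitals (chr16:10966098-10966138, + strand).
Gm26268: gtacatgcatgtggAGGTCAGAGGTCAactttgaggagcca

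The identity of the cells was looked at in the same consensus regions. A region was at the TSS of 23.1% of all protein-coding genes and of 7 of 10 AM genes, among them Chil3 (20.7 in library 1 and 14 in library 2) and Pparg (15.4 and 10.7), but not of Marco, Fabp5 or Krt79. It was at 1 of 6 lung epithelial genes (Scgb1a1), 0 of 5 lymphocyte genes, 1 of 5 neutrophil genes (S100a8) and 1 of 4 endothelial genes (Pecam1).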

How the data were processed

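The data are the deposited peak lists of 2 PPARγ ChIP libraries of AMs, and the 2 input libraries are not analysed here. The submitters' processing notes name CASAVA and bcl2fastq (2.20.0.422). Per the study's methods, adapters were trimmed with cutadapt, reads were aligned to mm10 with Bowtie2 and filtered with SAMtools, and MACS3 called the peaks. The authors removed duplicates and alignments of quality 30 or less, and set each library against its own input at a q of 0.05, without pooling. The deposited lists give, for each peak, a score, the fold enrichment as a linear ratio, −log10 of the p-value and −log10 of the q-value, and the summit. They hold no read counts, so the depth is unknown. The background in each fold enrichment was set from input coverage, and whether it followed the input at each summit is not given.

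Small RNA genes came from RefSeq (GRCm38.p6) and GENCODE for mm10. Entries of both sources on the same strand counted once if they had a reciprocal overlap of 50%, or overlapped and had the same symbol. Their class was that of RefSeq. In all, 3415 loci were in both sources, 658 in RefSeq only and 2619 in GENCODE only. Other small RNA genes were at most 400 bp long, and tRNA genes came from RefSeq. A region near several genes counts in each class. Families were read from the annotation's names. Promoter sequence was read from the genome. Shares have 95% Wilson intervals. With 1 group of 2 libraries no test between conditions was made, and no p-value is given. Named genes are the 6 leading regions of each class, all members of the snRNA families and of the polymerase III families, 40 myeloid and 20 other miRNA genes, 18 snoRNA hosts, and the regions at the distance edge. Others named (n-TCgca54 and n-TCgca55, tRNA clusters, U6 loci with summits near the start, Mir15b, Mir16-2 and Gm26268) were chosen after their values were seen. The members, lists and motifs were chosen with earlier results of these data known. Python 3.11.15, pandas 2.3.3, numpy 2.4.6 and Biopython 1.88 were used, and the overlap, motif and alignment steps were tested on simulated data. Alternatives were other peak thresholds, overlaps, distances and annotations, each library alone, and other summit windows.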

Additional observations from a re-analysis of the deposited data

How the results depend on the processing

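The share of tRNA genes with a region stayed above that of every other class in each setting that gave one, between 32.5% and 55.3%. The share in the top 10% fell below that of all regions for snoRNA regions within 5 kb (5.39%, against 5.83%) and for other regions under a reciprocal overlap of 50% (4.35%, against 5.61%) and with both summits within 1 kb (2.86%, against 5.83%). Several motif shares of single classes also crossed the share of all regions between libraries or windows, among them AP-1 at snoRNA and PU.1 at snRNA regions. A q of 0.001 and GENCODE alone, which gives no tRNA genes, moved no class value. Peaks of at least 5-fold left 348 regions in all, 48 at snoRNA, 118 at miRNA and 24 at other genes, and the shares of genes became 39.2% (tRNA), 4.27% (snRNA), 3.58% (snoRNA), 4.71% (miRNA) and 2.99% (other, with a library 1 median of 11.8). A reciprocal overlap of 50% left 321 regions, 82 at tRNA, 66 at snRNA, 34 at snoRNA (library 2 median 7.73), 122 at miRNA and 23 at other genes, with shares of 32.5%, 3.92%, 2.37%, 4.57% and 2.46%. Regions overlapping the gene numbered 261, with 46 at snRNA, 24 at snoRNA, 63 at miRNA and 26 at other genes and shares of 3.36%, 1.76%, 3% and 3.21%. Of these, 52.2%, 25% and 19% of snRNA, snoRNA and miRNA regions were in the top 10%, and 77.8% of miRNA regions were at a protein-coding TSS. Within 5 kb there were 1155 regions, 252 at snRNA, 204 at snoRNA, 455 at miRNA and 122 at other genes, with shares of 50.4% (tRNA), 9.87%, 11.5%, 11.9% and 8.24%. The top 10% then held 14.3% of snRNA and 5.39% of snoRNA regions, and 54.9% of miRNA regions were at a protein-coding TSS. With both summits within 1 kb, snoRNA regions numbered 49, the shares were 38.7% (tRNA), 3.4% (snoRNA), 4.89% (miRNA) and 3.74% (other), and 2.86% of other regions were in the top 10%. RefSeq alone gave 103 miRNA and 12 other regions, a share of 12.2% and a library 1 median of 15.7 for other genes. Without regions at a protein-coding TSS, 301 remained, 36 at snoRNA and 56 at miRNA genes, with shares of 35.2% (tRNA), 4.06% (snRNA), 2.73% (snoRNA), 2.24% (miRNA, 7.14% of regions in the top 10%) and 3.53% (other).

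With a single library (the lower value is without replicate 1 unless said, the higher without replicate 2), the regions ranged from 642 to 1384, with 180 to 288 at tRNA, 117 to 239 at snRNA, 82 to 251 at snoRNA, 217 to 498 at miRNA and 61 to 133 at other genes. The shares of genes ranged from 46.7 to 55.3%, 5.74 to 10.2%, 4.85 to 10.9%, 6.72 to 12.4% and 5.56 to 9.84% in the same order. Without replicate 2 the library 1 medians were 5.63, 5.04, 4.74, 4.74 and 4.44. The top 10% held 29.4 to 33.7% of tRNA and 18 to 19.5% of miRNA regions. The share at a protein-coding TSS was 47.6% without replicate 1 and 38.2% without replicate 2 for snoRNA, and 65.4% and 57.6% for miRNA regions. The B box share at tRNA summits was 5.84% within 50 bp and 38% within 200 bp. The causes of these changes were not tested beyond what each setting adds or removes. No paired analysis was possible because the series has 1 group of ChIP libraries. The lists hold no counts, so a locus without a region may lack reads that map to it alone.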
